A study of Mus musculus with 6 samples.

Results

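The 10 genes described here encode the core of the mouse microRNA pathway: Drosha, Dgcr8, Xpo5, Dicer1, Tarbp2, Prkra, Ago1, Ago2, Tnrc6a and Lin28a. All probe sets annotated to exactly 1 of these symbols were taken, which gave 31 of the 45037 probe sets, for 10 of the 18193 genes named in the deposited table. Tnrc6a had 9 probe sets, Dgcr8 and Ago2 had 4 each, Drosha had 3, Ago1 had 1, and the other 5 genes had 2 each. Of the 31 probe sets, 30 had a mean signal above 20.14, the limit used for testing. The exception was Prkra 1447737_at, whose signal lay between 1.65 and 9.94 on the 6 arrays.

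Doxycycline (Dox) switched on a microRNA-shaped short hairpin RNA (shRNAmir) against Geminin (Gmnn), a regulator of DNA replication licensing, in mouse embryonic stem (ES) cells. The 3 GemKD arrays came from cells given 500 ng Dox, per the labels, over 2 days of neural differentiation in the serum-free medium N2B27, and the 3 control arrays from uninduced cells of the same lines and days in culture. Experiments 1 and 3 used the line with shRNAmir 11 and experiment 2 used the line with shRNAmir 9, each experiment giving 1 GemKD and 1 control array. All 6 arrays came from derivatives of ES-E14TG2a of 129P2 background, and the control cells carried the same silent hairpin as their GemKD partners. Each hairpin was tested in 1 line, and no array held Dox without a Gmnn hairpin. Dox exposure, hairpin production and loss of Gmnn therefore cannot be told apart. The amount of hairpin RNA made was not measured here.

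An shRNAmir is made like a natural microRNA. In the nucleus the Microprocessor, which is Drosha with its RNA-binding partner Dgcr8, cuts the hairpin out of a longer transcript, and Exportin-5 (Xpo5) carries it to the cytoplasm. Dicer1, with the double-stranded RNA-binding proteins Tarbp2 (TRBP) and Prkra (PACT), trims it to a duplex, and an Argonaute protein such as Ago1 or Ago2 keeps 1 strand and recruits Tnrc6a (GW182) to silence matching messenger RNAs. Lin28a, abundant in ES cells, binds precursors of the let-7 family and blocks their maturation.

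A few sequences show how the genes are tied to microRNAs in the genome. They were taken from RefSeq, build GRCm38.p6, and the arrays did not measure the mature microRNAs. The Dgcr8 gene itself holds a microRNA hairpin, Mir1306, on its own strand. Its mature products are shown because a hairpin inside the Dgcr8 transcript is a known substrate of the Microprocessor, with the seed (bases 2 to 8) in capitals. They lie at chr16:18284288-18284310 and chr16:18284248-18284268, minus strand.
mmu-miR-1306-5p: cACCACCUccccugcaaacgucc
mmu-miR-1306-3p: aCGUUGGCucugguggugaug

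Lin28a is tied to the let-7 family, of which 12 hairpins and 9 mature 5p sequences were matched. All 9 mature sequences share 1 seed, GAGGUAG, as in let-7g (chr9:106178846-106178867, plus strand).
mmu-let-7g-5p: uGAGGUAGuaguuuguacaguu

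LIN28 proteins are known to bind the letters GGAG in the terminal loop of let-7 precursors. The letters were searched on the RNA strand alone, in a window from the end of the 5p arm through the 1st base of the 3p arm. The arms of the let-7 hairpins lay 23 to 36 bases apart, and the distances in other hairpins were not compared. The letters GGAG occurred in 9 of the 12 let-7 hairpins and in 6.95% (44 of 633) of the other mouse hairpins with both arms listed. The hairpins Mir98, Mirlet7b and Mirlet7c-2 had no match in this window. Mirlet7g (chr9:106178840-106178927, plus strand) is shown with the match in capitals, and Mirlet7c-2 (chr15:85706603-85706697, plus strand) as a hairpin without it.
Mirlet7g: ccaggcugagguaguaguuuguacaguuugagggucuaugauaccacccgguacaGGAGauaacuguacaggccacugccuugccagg
Mirlet7c-2: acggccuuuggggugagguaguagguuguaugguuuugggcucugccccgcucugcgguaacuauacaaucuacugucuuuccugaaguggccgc

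The signals are the authors' linear probe set intensities, with array medians between 59.33 and 60.89, and precision is limited by having only 6 arrays. Gmnn, the targeted gene, fell to 27.64%, 48.02% and 36.66% of its control in experiments 1, 2 and 3, as the labels of the 6 arrays have it. Hprt, a purine salvage enzyme, read 498, 660 and 426 in the controls and 2536, 3095 and 2461 in GemKD cells. The cause of this rise in Hprt was not tested. Gmnn and Hprt were both called with limma and the experiment as a block (adjusted p = 0.000403 and 3.45e-08). Without the block Hprt was called (0.024) but Gmnn was not (0.296), so that fit missed the targeted gene itself. Experiment 3 stood apart from the others: over all tested probe sets the standard deviation of the log2 difference between 2 arrays was 0.407 to 0.4335 when 1 of them was from experiment 3, and 0.2189 to 0.287 otherwise. The Dox fit was therefore also run without it.

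On the mean of the 3 experiments, induction left most microRNA pathway probe sets close to their control levels. Changes are given as log2 differences of signal plus 16, a scale that understates the changes of dim probe sets. With limma and Benjamini-Hochberg adjustment over all 31526 tested probe sets, 0 of the 30 tested probe sets changed with Dox, against a background of 0.00317% of all tested probe sets (1 of 31526). With the experiment as a block the count was again 0 of 30, and the background was 0.00952% (3 of 31526). At an unadjusted p under 0.05 there was 1 of 30 without the block and 2 of 30 with it, against 346 and 1456 of all tested probe sets. The median log2 difference of the 30 probe sets was 0.0012 against 0.0124 for all tested, and its median size was 0.0406 against 0.0735. Of the 30, 15 had a difference above 0. In the fit of experiments 1 and 2 alone, with the block, 0 were called. There 7 of 30 had an unadjusted p under 0.05 in limma, a larger share than the 2688 of all 31526 tested. They were Drosha 1438505_s_at (-0.10), 1428656_at (0.15) and 1438440_at (0.54), Dgcr8 1455311_at (-0.20), Tarbp2 1438952_x_at (-0.42), Lin28a 1437752_at (0.10) and Tnrc6a 1434898_at (-0.25). The 7 went in both directions, within Drosha too, and probe sets of 1 gene are not independent. The differences of the 30 in that fit ran from -0.42 (Tarbp2 1438952_x_at, adjusted p = 0.238) to 0.54 (Drosha 1438440_at, adjusted p = 0.332).

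The brightest probe sets of the 10 genes gave limits for the change of their own signals, on the mean of the 3 experiments and without adjustment for their number. Their log2 differences ran from -0.04 for Drosha to 0.06 for Ago1. Their 95% intervals in the block fit reached no lower than -0.185 and no higher than 0.248, which is 1.14-fold lower and 1.19-fold higher. A ratio in 1 experiment could lie outside, as for Dgcr8 1435439_at in experiment 3 (0.33). Intervals of dimmer probe sets went further, 0.15 to 0.72 for Drosha 1438440_at and -0.49 to -0.05 for Tarbp2 1438952_x_at. Over all 30 probe sets, 28 had an interval inside 1.5-fold in either direction. In bulk RNA, fewer cells of a type and less RNA per cell cannot be told apart.

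**Figure D1:**
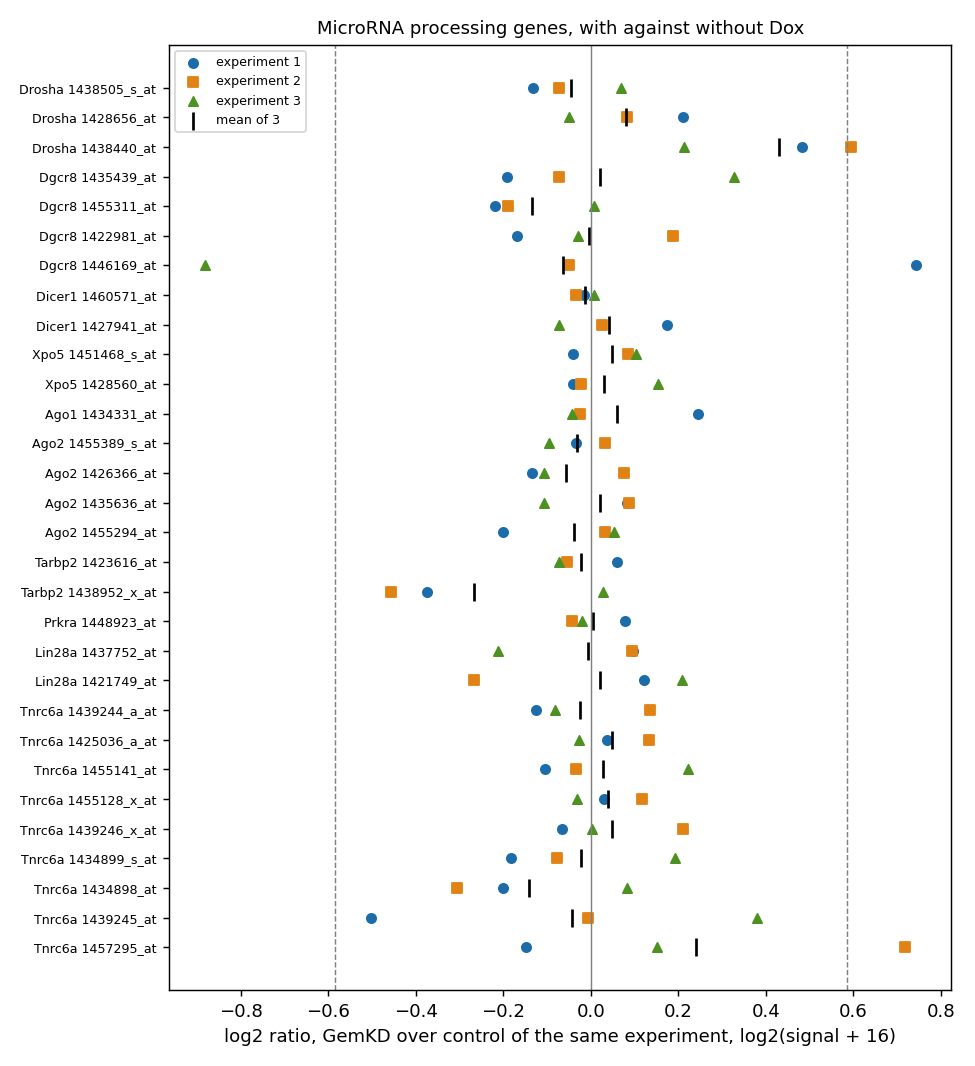
Log2 ratio of GemKD over control within each experiment for the 30 tested probe sets of the microRNA processing genes, on the log2(signal + 16) scale. Circles, squares and triangles are experiments 1, 2 and 3, black ticks the mean of the 3, and dashed lines mark 1.5-fold. Drosha 1438440_at is the probe set with all 3 points above 0.

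In the Microprocessor, Drosha, the nuclear RNase III enzyme, was read by 3 probe sets. The brightest, 1438505_s_at, gave 3821, 3749 and 3742 in the controls of experiments 1, 2 and 3 and 3488, 3562 and 3928 in GemKD cells. The groups overlapped, and the log2 difference was -0.04 (SE 0.06). This SE and those of the Dox differences below are from the fit with no block. Drosha 1428656_at gave 1337, 1556 and 1603 in controls and 1549, 1650 and 1547 in GemKD cells, also overlapping, with a difference of 0.08 (SE 0.09).

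The dim Drosha probe set 1438440_at behaved differently from the others. It read 72.55, 74.55 and 82.61 in controls and 107.76, 120.74 and 98.36 in GemKD cells, so that all 3 GemKD arrays lay above all 3 controls. It was the 1 of 30 probe sets with GemKD arrays wholly above the controls, against a background of 2.83%, and 0 of 30 were wholly below, against 2.27%. It was also the 1 of 30 that was higher in all 3 experiments (background 13.5%), with 0 of 30 lower in all 3 (background 10.5%). The log2 difference was 0.43, with a 95% interval of 0.15 to 0.72 in the block fit (limma, unadjusted p = 0.0067, adjusted p = 0.992). It did not pass the test, and the brighter Drosha probe sets did not show the same shift.

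Dgcr8, the partner that recognises the hairpin junction, was read by 4 probe sets with overlapping groups. The brightest, 1435439_at, gave 838, 838 and 872 in controls and 732, 796 and 1099 in GemKD cells. GemKD was thus the lower array in experiments 1 and 2 and the higher in experiment 3. Dgcr8 1455311_at followed the same order in experiments 1 and 2 (log2 ratios -0.22 and -0.19) and was 0.01 in experiment 3. The dim Dgcr8 1446169_at moved past 1.5-fold in opposite directions, with a log2 ratio of 0.74 in experiment 1 and -0.88 in experiment 3. Probe sets past 1.5-fold in a single pair of arrays numbered 1 of 30 in experiment 1 (background 2.18%), 2 of 30 in experiment 2 (3.39%) and 1 of 30 in experiment 3 (5.28%). The pair in experiment 2 was Drosha 1438440_at (0.59) and the dim Tnrc6a 1457295_at (0.72).

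Xpo5, the export receptor for the hairpin, is the step most often named as limiting when short hairpins are made in excess. Its probe set 1451468_s_at gave 975, 963 and 967 in controls and 948, 1022 and 1040 in GemKD cells. The groups overlapped, with a log2 difference of 0.05 (95% interval -0.10 to 0.20 in the block fit). Xpo5 1428560_at gave a difference of 0.03.

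Dicer1, the cytoplasmic RNase III enzyme, read 586, 605 and 712 in controls and 580, 590 and 716 in GemKD cells with 1460571_at. The log2 ratios were -0.02, -0.03 and 0.01 in experiments 1, 2 and 3, and the mean difference was -0.01 (SE 0.13, or 95% interval -0.18 to 0.15 with the block). Dicer1 1427941_at differed by 0.04.

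Tarbp2, which helps Dicer1 hand the duplex to Argonaute, was read by 1423616_at at 851, 893 and 1139 in controls and 889, 859 and 1082 in GemKD cells, a difference of -0.02. The other Tarbp2 probe set, 1438952_x_at, gave 517, 540 and 745 in controls and 395, 389 and 761 in GemKD cells. GemKD was lower in experiments 1 and 2 (log2 ratios -0.37 and -0.46) and level in experiment 3 (0.03). The difference was -0.27 (unadjusted p = 0.0213 and adjusted p = 0.992 with the block in limma) and did not pass. On these arrays the suffix x marks a probe set with probes that can match other transcripts. Tnrc6a 1455128_x_at and 1439246_x_at carry it too. The brightest probe sets of Drosha, Xpo5 and Ago2 carry the suffix s, and their match to other transcripts was not checked. Prkra, the other Dicer1 partner, differed by 0.01 at 1448923_at, with 894, 899 and 801 in controls and 946, 873 and 789.6 in GemKD cells.

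Among the silencing proteins, Ago1 1434331_at read 589.8, 645 and 460.1 in controls and 702, 635 and 446 in GemKD cells. The groups overlapped, the largest ratio (0.25) being that of experiment 1. Ago2, the Argonaute able to cut its target, had 4 probe sets with differences between -0.06 and 0.02. Ago2 1455389_s_at gave 1651, 1703 and 1781 in controls against 1613, 1741 and 1665. The 9 Tnrc6a probe sets had differences between -0.14 (1434898_at) and 0.24 (1457295_at), and the brightest, 1439244_a_at, had -0.02 (SE 0.09).

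Lin28a was read by the bright probe set 1437752_at at 4972, 5142 and 5428 in controls and 5316, 5494 and 4683 in GemKD cells. It was higher by 0.10 in experiments 1 and 2 and lower by 0.21 in experiment 3, and the mean difference was -0.01 (SE 0.07). Lin28a 1421749_at gave 3150, 3928 and 2426 in controls and 3426, 3263 and 2804 in GemKD cells, with log2 ratios of 0.12, -0.27 and 0.21. The GemKD array was the lower one in experiment 2 alone.

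That Lin28a probe set came closest to a difference between the hairpins. The Dox effect of shRNAmir 9 minus that of shRNAmir 11 was -0.43 (95% interval -0.65 to -0.21, adjusted p = 0.0704 in limma with the experiment as a block). It was called with a pseudocount of 1 (adjusted p = 0.047) or 64 (0.0221) in place of 16. Lin28a 1437752_at had 0.15 in the same contrast, the opposite sign. Of the 30 probe sets 0 were called, 1 had an unadjusted p under 0.05, and the background was 0.336%. Hairpin 9 was seen in 1 pair of arrays, and hairpin, line and experiment cannot be told apart.

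Between experiments 1 and 2, which used different lines, the 30 probe sets had log2 differences from -0.31 to 0.2, with a median size of 0.05 against 0.08 for all tested. With limma 0 of 30 probe sets differed between them (background 0.0349%), with 1 at an unadjusted p under 0.05. That was Dgcr8 1422981_at, at 263 and 232 in the control and GemKD arrays of experiment 1 and 184 and 211 in experiment 2, a log2 difference of -0.31. Without the GemKD array of experiment 2, Lin28a 1421749_at was called higher in experiment 2 (0.34, adjusted p = 0.0298), and without the control array its difference was -0.09. The control array of experiment 2, at 3928, is the highest of the 6.

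Experiment 3 differed from experiments 1 and 2 in 11 of the 30 probe sets. With Dox as a covariate in limma, 9 were higher in experiment 3, against a background of 10.6%, and 2 were lower, against 15.9%. Tarbp2, Ago2, Dicer1, Xpo5 and Tnrc6a had probe sets called higher, Ago1 and Lin28a had 1 called lower each, and none of the tested probe sets of Drosha, Dgcr8 or Prkra was called. At an unadjusted p under 0.05 there were 15 of 30, against 11964 of the 31526 tested probe sets. The median log2 difference of the 30 was 0.13 against -0.01 for all tested, and 22 of 30 were above 0. Both arrays of experiment 3 lay above the other 4 for 15 probe sets (background 20.8%) and below them for 3 (background 25.7%). Probe sets of 1 gene read the same transcripts and are not independent. Without the intensity trend in limma 2 calls remained, Ago1 and Tarbp2 1438952_x_at, and the count was 6 without the GemKD array of experiment 1 and 7 without that of experiment 3. The p-values measure the spread between arrays after the Dox term, not between repeats of experiment 3.

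**Figure D2:**
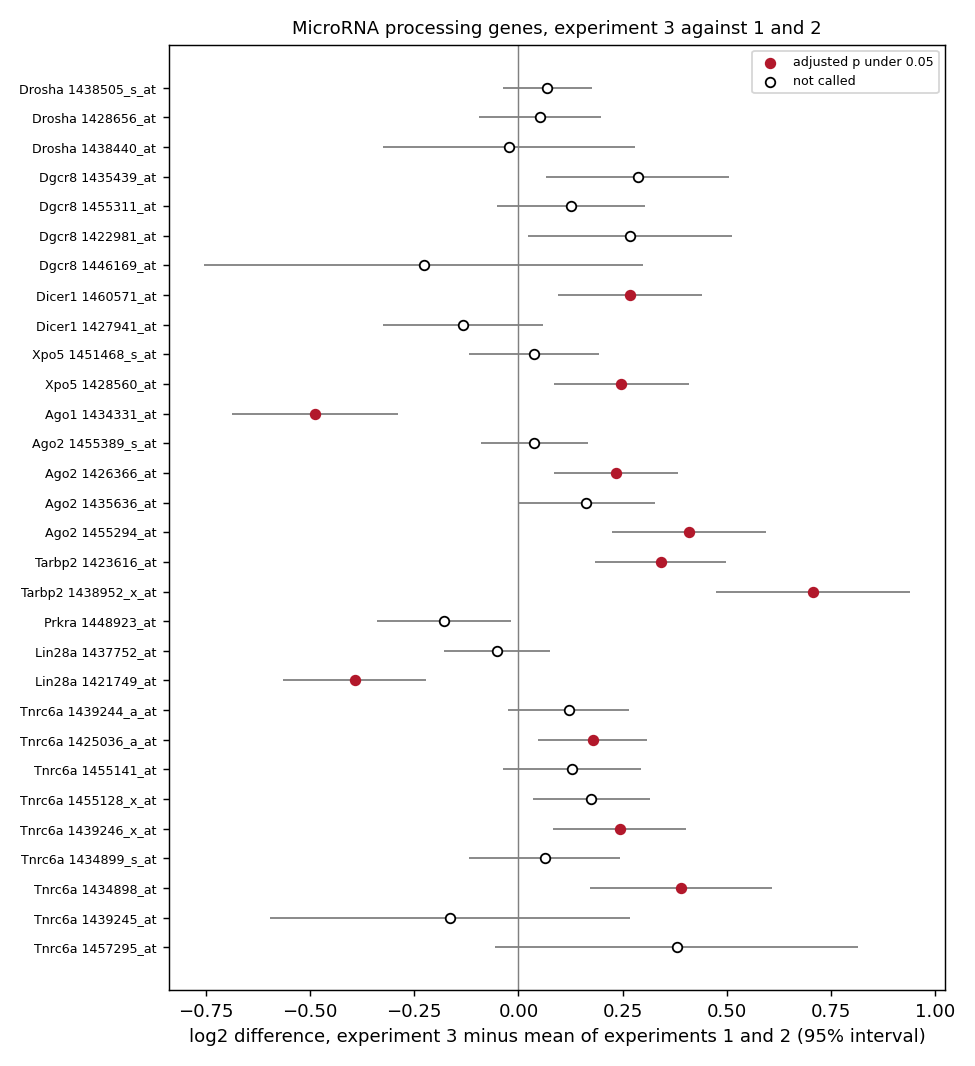
Log2 difference of experiment 3 from the mean of experiments 1 and 2 for the 30 tested probe sets, with 95% intervals from limma, Dox as a covariate. Red points passed an adjusted p of 0.05, and open points did not. Tarbp2 1438952_x_at is the highest and Ago1 1434331_at the lowest.

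The cells of experiment 3 also differed in their cell state markers. The 5 neural ectoderm markers (Sox1, Pax6, Nes, Zic1, Sox2) summed to between 6109 and 6537 in experiment 3 and between 9291 and 9645 in the others, and 4 of the 5 were called lower. Over the brightest probe sets of all 14185 tested genes, 20.1% were called lower and 10.6% higher. Sox1, an early neural marker, was detected on every array at 523 to 2443. Of 6 pluripotency markers 4 were lower (sums of 13551 and 14387 against 18782 to 20885), among them Nanog by -2.61, while Pou5f1 differed by -0.03. All 4 primed epiblast markers (Fgf5, Dnmt3b, Otx2, Pou3f1) were higher, with sums of 20339 and 20693 against 13525 to 15675. Of 6 fibroblast markers 4 were lower and 1 higher (sums of 566 and 647 against 1176 to 1337). The mesoderm, endoderm and trophoblast lists had 0 calls, with sums of at most 758, 295 and 491 on any array, and Kdr, Mixl1 and Afp among them lay below the testing limit. The part of these markers in the differences below was not tested.

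Ago1, a loading Argonaute, fell in experiment 3. Its single probe set read 460.1 and 446 there, and 589.8, 645, 702 and 635 on the other 4 arrays, with no overlap. The log2 difference was -0.49 (SE 0.09, 1.40-fold, adjusted p = 0.00247). It was called under all 14 alternative settings run, experiment 3 against experiment 1 of the same hairpin among them, with adjusted p up to 0.0437.

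Tarbp2 rose at both probe sets. With 1423616_at experiment 3 gave 1139 and 1082 against 851 to 893 elsewhere, a log2 difference of 0.34 (SE 0.07, adjusted p = 0.00487). With 1438952_x_at it gave 745 and 761 against 389 to 540, a difference of 0.71 (SE 0.11, adjusted p = 0.000621). Neither set of values overlapped. The call at 1438952_x_at was kept in all 13 settings in which it was tested (adjusted p up to 0.0365), and that at 1423616_at in 13 of 14.

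Ago2 rose at 2 of its 4 probe sets. With 1455294_at both arrays of experiment 3, 839 and 870.2, lay above the range of 580 to 669 on the others, a log2 difference of 0.41 (SE 0.08, adjusted p = 0.00431). Ago2 1426366_at gave 1576 and 1462 against 1232 to 1354, a difference of 0.23 (adjusted p = 0.0251). Its call was lost when GemKD 1 (adjusted p = 0.0991), control 2 (0.107) or control 3 (0.135) was left out, the number being that of the experiment. The brightest Ago2 probe set, 1455389_s_at, differed by 0.04.

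Dicer1 gave different answers at its 2 probe sets. Dicer1 1460571_at read 712 and 716 in experiment 3 and 580 to 605 on the other arrays, without overlap, a log2 difference of 0.27 (SE 0.08, adjusted p = 0.0277). Dicer1 1427941_at read 538 and 511 against 506 to 624, overlapping, with a difference of -0.13 that did not pass. The call at 1460571_at was lost without any 1 of the 6 arrays, at adjusted p between 0.0608 and 0.096, although the difference stayed between 0.25 and 0.28.

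Xpo5 1428560_at read 1039 and 1158 in experiment 3 against 891 to 948, a difference of 0.25 (SE 0.07, adjusted p = 0.0293). Leaving out GemKD 1, 2 or 3 ended the call (adjusted p = 0.113, 0.0823 and 0.237), with the difference at 0.15 in the last case. The other Xpo5 probe set, 1451468_s_at, differed by 0.04 with overlapping values.

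Of the 9 Tnrc6a probe sets 3 rose in experiment 3. Tnrc6a 1434898_at read 569 and 604 against 395 to 492, a log2 difference of 0.39 (SE 0.10, adjusted p = 0.0139), which was lost without the GemKD array of experiment 3 (0.22, adjusted p = 0.174). Tnrc6a 1439246_x_at (0.24, adjusted p = 0.0296) and 1425036_a_at (0.18, adjusted p = 0.0461) kept their calls in 6 of 13 settings each. These 2 were lost without the GemKD array of experiment 1 (adjusted p = 0.122 and 0.127), the control of experiment 2 (0.124 and 0.17) or the control of experiment 3 (0.144 and 0.261). In addition 1439246_x_at was lost without the GemKD array of experiment 3 (0.0635), and 1425036_a_at without the control of experiment 1 (0.107). The remaining 6 had differences between -0.16 and 0.38 and did not pass.

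Lin28a fell at 1 of 2 probe sets. With 1421749_at experiment 3 gave 2426 and 2804 against 3150 to 3928, without overlap, a difference of -0.39 (SE 0.08, adjusted p = 0.00371). Without the control array of experiment 3 it was -0.25 (adjusted p = 0.0751). The brighter 1437752_at gave 5428 and 4683 against 4972 to 5494, overlapping, a difference of -0.05.

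The Microprocessor genes and Prkra did not pass. Dgcr8 1435439_at was nearest, at 872 and 1099 against 732 to 838 and a difference of 0.29 (adjusted p = 0.0546). It was called in 6 of 14 settings, and fell to 0.06 without the GemKD array of experiment 3. Drosha 1438505_s_at differed by 0.07 and Prkra 1448923_at by -0.18 (adjusted p = 0.0948), the latter with both arrays of experiment 3, 801 and 789.6, below the 873 to 946 of the others.

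**Figure D3:**
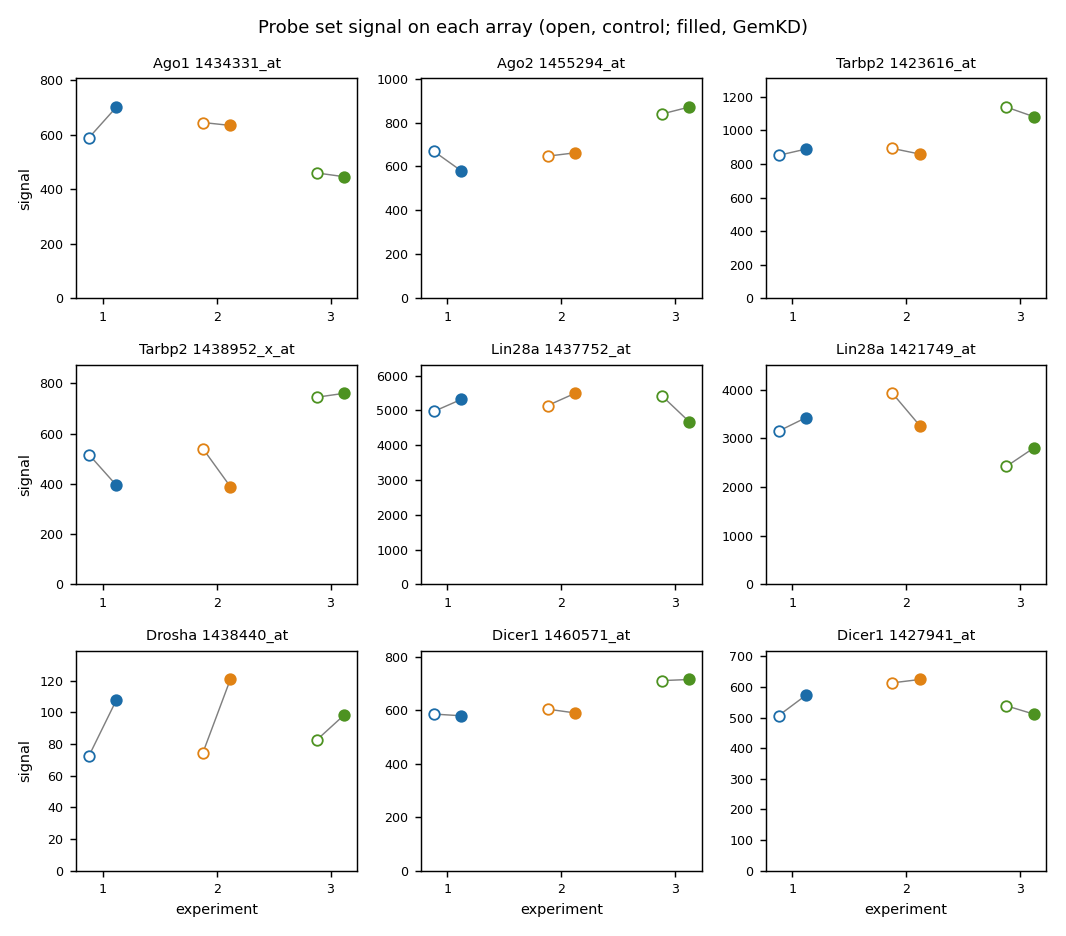
Probe set signal on each array (linear scale from 0) for 9 probe sets, with open points for control and filled points for GemKD, joined within each experiment. Ago1 sits lower and both Tarbp2 probe sets higher in experiment 3, while Drosha 1438440_at is higher with Dox in each experiment.

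Beyond the 10 core genes, 7 lists of pathway partners named 68 genes, of which 58 had a probe set and 56 were tested by their brightest one. With limma 0 of the 7 Microprocessor partners, 5 export genes, 6 further Argonaute and GW182 paralogs, 7 RISC-associated genes, 9 genes of the let-7 axis, 18 deadenylation and decapping genes and 4 microRNA host transcripts tested changed with Dox, in either fit. In the block fit of experiments 1 and 2 alone 0 were called. There 8 of 56 had an unadjusted p under 0.05 in limma, a larger share than the 2688 of all 31526 tested probe sets. The 56 are the brightest probe sets of their genes and the 31526 include dimmer ones, so the 2 shares are not alike in kind. Listed genes without a tested probe set were not analysed here.

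Between experiments these lists had calls in both directions, 4 higher and 13 lower of 56 genes, where all tested genes had 10.6% higher and 20.1% lower. In the let-7 axis, 2 of 9 genes rose in experiment 3 and 3 fell. Tut4, the enzyme that adds uridine to pre-let-7 held by Lin28a, gave 2045 and 2234 there against 3231 to 3280, a log2 difference of -0.60 (SE 0.05, adjusted p = 1.01e-05), though its other 4 tested probe sets were not called. The let-7 targets Hmga2 (-0.53) and Igf2bp3 (-0.31) fell. Trim71, also a let-7 target, rose by 0.18. Mycn rose by 0.24, although its probe set 1425923_at was called lower (-0.93).

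Of 7 RISC-associated genes Mov10, an RNA helicase, fell by 0.72 on the log2 scale and Fmr1 by 0.24, and none rose. These calls were at the brightest probe sets, where Mov10 read 351 and 314 in experiment 3 against 493 to 616. The other Mov10 probe set, a dim one (0.04), and the other Fmr1 probe sets (-0.01 and 0.27) were not called. Of 6 Argonaute and GW182 paralogs the germline Argonautes Piwil2 (-0.65) and the dim Piwil1 (-0.53) fell, and none rose. Of 18 deadenylation and decapping genes Cnot6, a catalytic deadenylase, rose by 0.25. Its paralog Cnot6l fell by 0.38, Pan3 by 0.26 and Edc3 by 0.23. Of 5 export genes Rcc1, which loads Ran with GTP, rose by 0.25, and of 7 Microprocessor partners the helicase Ddx17 fell by 0.16. Of 4 microRNA host transcripts Rian fell by 0.37 and Meg3 by 0.13. Of the other Meg3 probe sets 3 were called lower and 4 higher, the latter by 0.36 to 0.85. Another Rian probe set was called lower (-0.26), while those at 0.07 and 0.21 were not called.

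**Figure D4:**
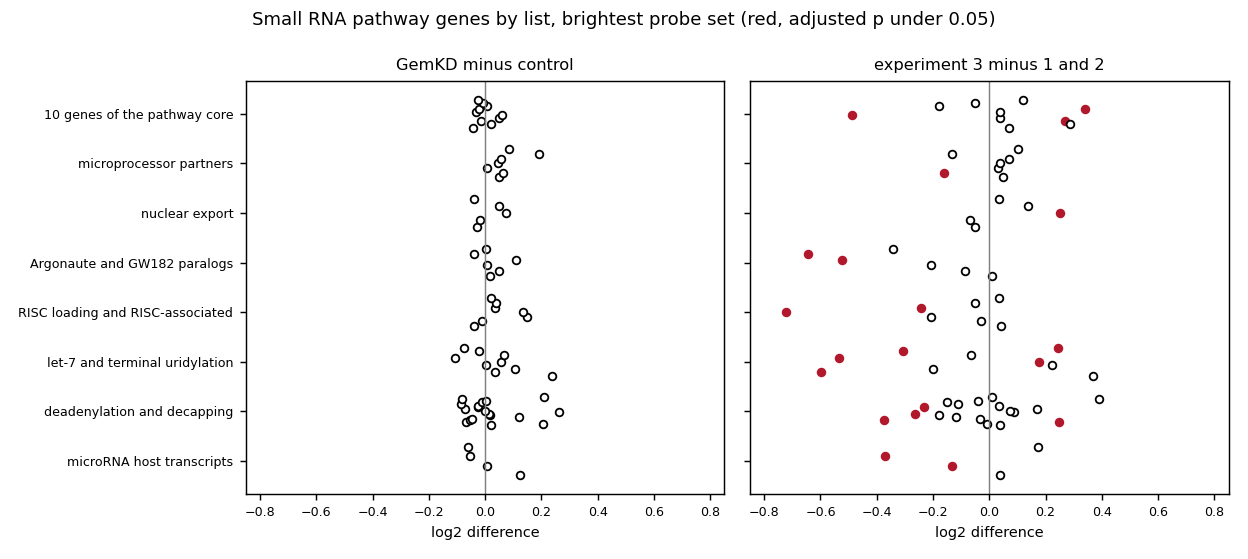
Log2 difference of the brightest probe set of each gene, by list, for GemKD minus control (left, block fit) and experiment 3 minus experiments 1 and 2 (right). Red points passed an adjusted p of 0.05. On the left no point is red, and on the right red points lie on both sides of 0.

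For each of the 10 genes, the gene with the most alike pattern over the 6 arrays was found among 14184 others by Pearson's r of log2 values, as a description. Over so few arrays very many genes reach high values, from 10 above 0.95 for Ago2 to 680 for Ago1. Tarbp2 was most like Nhp2 (r = 0.9998), a protein of small nucleolar and telomerase RNA particles. Dicer1 was most like Zfp36l2 (0.9993) and Ago1 most like Rnf213 (0.9985). The others were Dgcr8 with Elp6 (0.9972), Prkra with Wdr90 (0.9957), Lin28a with Gabrd (0.9914), Drosha with Tbcd (0.9909), Tnrc6a with Tgfbr2 (0.9903), Xpo5 with Smpd3 (0.9876) and Ago2 with AI429214 (0.9869). Smpd3 read 17.95 to 31.17, near the testing limit of 20.14. Gabrd (45.64 to 59.36) and AI429214 (50.71 to 64.52) were also dim.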

How the data were processed

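RNA of 6 cultures was measured on Affymetrix Mouse Genome 430 2.0 arrays. The table the authors deposited holds 1 linear intensity for each probe set and array, per the file headers and values. Which background correction and normalization they used is not given in the sources used here. Gene symbols are those of the platform annotation (1 symbol for 34945 probe sets, several for 932, none for 9160), and a RefSeq table of GRCm38.p6 changed 0 of them. The analysis used log2(signal + 16). Only the 31526 probe sets whose mean over the arrays exceeded the 30th percentile entered limma 3.58.1 in R 4.3.3, with lmFit, eBayes (trend on intensity), 2 sides and Benjamini-Hochberg at 0.05. The Dox fit with the block and the experiment 3 contrast were tested on simulated data, and the other fits were not. Over 5 simulations of 31526 probe sets, 356, 343 and 301 changes of 1.25-fold, 1.5-fold and 2-fold were planted for the Dox block fit. It recovered 27.8%, 68.2% and 96.3% of them. On the real arrays that fit called 3 of 31526, so its adjusted cutoff was stricter than in the simulations. These shares therefore overstate its recovery. The experiment 3 contrast recovered 26.2%, 62.3% and 95%. On the real arrays that contrast called 8337 of 31526, a looser cutoff than in its simulations, so its shares understate its recovery. Small changes with Dox would mostly be missed.

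GemKD was compared with control in a fit with no block and in one blocked on experiment. The experiment number pairs the arrays because each experiment had its own control. Deviations from group means correlated at 0.489, 0.472 and 0.714 within experiments 1, 2 and 3 over 14185 genes. Experiment contrasts had Dox as a covariate, and the hairpin contrast was an interaction. With 1 array per experiment and group, differences within an experiment have no test. The exact permutation test of 3 against 3 cannot go below p = 0.1. Named genes were all probe sets of the 10 genes, called genes of the lists (at most 4 per list by size), Gmnn and the most alike genes. Hprt, the cell state markers, and genes outside the limit of 4 (Trim71) or named for another reason were chosen after their values were seen. The members and lists were chosen with earlier results of these data known. The alternatives were quantile normalization, other filters and pseudocounts, no trend, 1 probe set per gene, and leaving out arrays or experiments.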

Additional observations from a re-analysis of the deposited data

Results flagged for a closer look

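The Dox effect differed between the hairpins, by the interaction test, for 4 of 193 tested probe sets of the 10 genes, the listed genes, Gmnn and Hprt, against 0.336% of all tested. Gmnn 1417506_at had a log2 Dox effect with shRNAmir 9 minus that with shRNAmir 11 of 0.59 (limma, adjusted p = 0.0415), so Gmnn was left higher in experiment 2. The RNA helicase Ddx6, of the decapping machinery, had a difference of 0.82 at 1424598_at (adjusted p = 0.000252). It read 1363 in the control of experiment 2 and 2103 to 2401 on the other 5 arrays. Its probe sets 1439122_at (0.60, adjusted p = 0.057) and 1434697_at (0.25) were not called. The exonuclease Xrn2 had 0.73 at 1422842_at (adjusted p = 0.00248). It read 1287 in the same control and 1779 to 2092 elsewhere, and its other probe sets had -0.05 and -0.16. The helicase Ddx17 had 1.53 at the dim 1439037_at (adjusted p = 0.00245), which read 75.69 in that control and 110.06 to 212.1 elsewhere, while its 2 brighter probe sets had -0.01 and 0.05. The contrast rests on 1 pair of arrays for shRNAmir 9, and the cause was not tested.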

How the results depend on the processing

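The count of 0 pathway probe sets called for Dox held in all 18 alternatives, the replicate block among them (0 of 30). Over all tested probe sets these alternatives called between 0 and 17, so 0 of 30 would be likely for any 30 probe sets. The paired fit without experiment 1, 2 or 3 also called 0, and leaving out each array gave 0 to 0. For experiment 3 the count of 11 fell to 2 with no intensity trend (4261 in place of 8337 over all tested probe sets) and to 4 of 10 (3 higher, 1 lower) with 1 probe set per gene, where 34% of 14185 genes were called (11.9% higher, 22.1% lower). It was 6 without the GemKD array of experiment 1, 7 without that of experiment 3, and 6 to 11 over the 6 left-out arrays. Experiment 2 against 1 gave 0 to 1 over the left-out arrays, an alternative added after seeing the data (1 without the GemKD array of experiment 2). The hairpin count was 1 with a pseudocount of 1 and 1 with a pseudocount of 64. Leaving out an array leaves that contrast no residual degrees of freedom, so it was not run. Dox differences near 0 changed sign. Quantile normalization gave -0.0095 for Prkra 1448923_at. With the replicate block and without experiment 1, Ago1 had -0.033, Prkra -0.031 and Tnrc6a 1439244_a_at 0.027. With the replicate block and without experiment 3, Dgcr8 1435439_at had -0.13, Tarbp2 1423616_at 0.0032, Lin28a 1437752_at 0.0957 and Tnrc6a 1439244_a_at 0.0051. Leaving out 1 array gave Dox ranges of -0.11 to 0.0701 for Dicer1 1460571_at, -0.077 to 0.25 for Ago1, -0.12 to 0.10 for Tarbp2 1423616_at, -0.056 to 0.072 for Prkra, -0.10 to 0.031 for Tnrc6a 1439244_a_at, -0.15 to 0.14 for Dgcr8 1435439_at and -0.053 to 0.062 for Lin28a 1437752_at. For experiment 3 it gave -0.016 to 0.16 for Drosha 1438505_s_at, -0.0026 to 0.077 for Xpo5 1451468_s_at, -0.21 to 0.10 for Lin28a 1437752_at and -0.0093 to 0.086 for Ago2 1455389_s_at. Of the 11 calls, Ago1 and Tarbp2 1438952_x_at held in every setting in which they were tested. The cause of these changes was not tested.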
